A study of Mus musculus with 7 samples.

Results

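The genes described here are 9 that encode core pluripotency transcription factors of the mouse, namely Pou5f1, Nanog, Sox2, Klf4, Klf2, Esrrb, Zfp42, Tbx3 and Prdm14. Each gene was taken with its flanks as a window of mm9, the mouse genome build named in the submitters' processing notes, and every deposited peak that overlapped a window by at least 1 bp was kept. The windows were 40 to 200 kb long and 630 kb in all. They held 75 of the 52296 peaks of Zfp281 in embryonic stem cells (ESCs), 5 of the 3449 peaks of Zfp281 in extraembryonic endoderm stem cells (XENs) and 11 of the 8184 peaks of Suz12 in ESCs. The XEN lists of Suz12 (4 peaks) and H3K27me3 (1 peak) had 0 peaks in the windows and are too short to bear on these genes.

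The data come from ChIP-seq (sequencing of DNA recovered by chromatin immunoprecipitation), which reads out where a protein sits on DNA. The 7 samples were 3 from ESCs (input, Suz12, Zfp281) and 4 from XENs (input, Suz12, Zfp281, H3K27me3), all of strain 129S1, untreated as far as the labels say, and each group was 1 library. Both cell types grew without feeder cells, ESCs in serum with leukemia inhibitory factor and XENs in medium conditioned by mouse embryonic fibroblasts. With 1 library per group there is no spread between replicates, so no test of cell type or antibody was possible. The study asked whether Zfp281 holds ESCs back from becoming extraembryonic endoderm. The files hold binding sites and no expression, so the identity of the cells could not be checked by marker levels.

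ESCs renew themselves while keeping the ability to form every tissue of the embryo. Pou5f1 (the gene of Oct4), Sox2 and Nanog encode the factors at the centre of the network that maintains this state, and they bind their own and each other's enhancers. Klf4, Klf2, Esrrb and Tbx3 encode factors that support self-renewal alongside them, Prdm14 encodes a regulator that keeps ESCs from differentiating, and Zfp42 (Rex1) is a widely used marker of naive ESCs. XENs derive from the primitive endoderm, a lineage in which this network is shut down. Zfp281 is a zinc finger protein known to bind G-rich DNA and to occupy pluripotency genes in ESCs. Suz12 is a core subunit of Polycomb repressive complex 2, which trimethylates histone H3 at lysine 27 (H3K27me3) at silent developmental genes.

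Because Zfp281 is known for G-rich sites, the promoters of the 9 genes were searched for GGGGAGGGG and for the shorter GGGAGGG, on both strands, in the 250 bases before each transcription start (RefSeq, GRCm38.p6). The 2 elements overlap, since every match of the longer one holds the shorter one. Promoters were found for 7 of the genes, 10 promoters in all. None held the longer element, which was present in 5.75% of all 32851 promoters. The shorter one was present in 5 of the 10, belonging to 4 genes, against 19.7% of all promoters. The 2 Nanog promoters among the 5 overlap and hold the same matches, so they are not separate sequences. The other promoters of Pou5f1 and Esrrb held no match. With 10 promoters the share is a description, and its difference from that of all promoters was not tested. The promoters at the annotated start of those 4 genes are shown 5′ to 3′ with each match in capitals, either as GGGAGGG or as its reverse complement CCCTCCC, because they show how the element is placed in each.
Pou5f1: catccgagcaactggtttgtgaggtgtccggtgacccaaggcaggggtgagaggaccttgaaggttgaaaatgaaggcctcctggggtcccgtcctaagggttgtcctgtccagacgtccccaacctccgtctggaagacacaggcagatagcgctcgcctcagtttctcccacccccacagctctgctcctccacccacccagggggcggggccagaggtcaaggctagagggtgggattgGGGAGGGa
Nanog: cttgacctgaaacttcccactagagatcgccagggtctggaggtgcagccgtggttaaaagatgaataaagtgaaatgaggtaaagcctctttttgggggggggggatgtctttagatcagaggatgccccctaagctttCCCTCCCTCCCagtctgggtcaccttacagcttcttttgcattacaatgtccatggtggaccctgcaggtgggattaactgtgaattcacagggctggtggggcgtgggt
Klf4: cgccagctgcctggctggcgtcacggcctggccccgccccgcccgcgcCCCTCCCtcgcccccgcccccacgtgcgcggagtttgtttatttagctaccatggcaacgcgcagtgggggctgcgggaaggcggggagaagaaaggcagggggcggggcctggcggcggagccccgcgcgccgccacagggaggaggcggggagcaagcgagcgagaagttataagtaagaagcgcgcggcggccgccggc
Esrrb: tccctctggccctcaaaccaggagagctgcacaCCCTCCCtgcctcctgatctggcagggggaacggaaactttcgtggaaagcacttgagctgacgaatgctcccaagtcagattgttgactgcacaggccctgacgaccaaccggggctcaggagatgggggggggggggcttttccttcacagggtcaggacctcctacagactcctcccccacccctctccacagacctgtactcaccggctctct

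The match began 8 bases before the start of Pou5f1, 110 before that of Nanog (where 2 matches overlap), 202 before that of Klf4 and 217 before that of Esrrb. A match is a description of the letters and not a binding site. The peaks are in mm9 and these sequences in a later build, so whether a peak covers them was not analysed here.

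All 9 windows held Zfp281 peaks in ESCs, from 2 at Zfp42 to 21 at Esrrb. For comparison, 41.3% of the 51388 bins of 50 kb along chromosomes 1 to 19 and X held at least 1, although the bins include gene deserts and some windows are longer. The windows held 119 ESC Zfp281 peaks per Mb against 20.4 over these chromosomes, a ratio of 5.85 (exact Poisson 95% interval 4.60 to 7.33, which covers counting error alone and treats adjoining peaks as independent). Measured against only those bins that held a peak of any list, the ratio was 2.52. The density was 10 peaks per 50 kb at Sox2 and at Klf2, 8.33 at Tbx3, 8 at Nanog, 7.50 at Pou5f1, 5.25 at Esrrb and 5 at Klf4. It was 2.73 at Prdm14 and 1.82 at Zfp42. Thus 7 of the 9 windows reached 4 peaks per 50 kb, a limit chosen after the values were seen, which 8.65% of the bins reached.

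**Figure D1:**
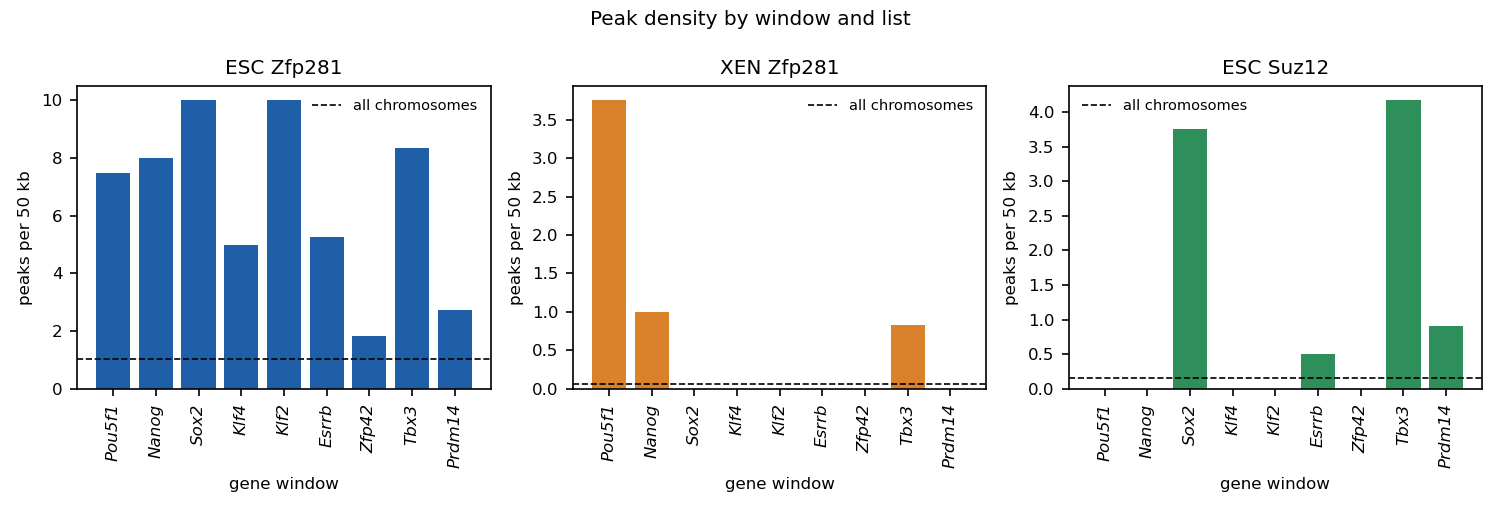
Peaks per 50 kb in the window of each gene, in 1 panel per list, with the density over chromosomes 1 to 19 and X as a dashed line. ESC Zfp281 peaks were denser than the dashed line in all 9 windows, while XEN Zfp281 peaks were listed in 3 windows and ESC Suz12 peaks in 4.

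The peaks in the windows were of ordinary strength by the middle of their distribution but reached far up the list. Their median fold enrichment over the control, as the authors' peak lists give it, was 5.74 against 5.48 over the whole ESC Zfp281 list, and their median width was 590 bp against 594 bp. By the deposited -log10 q-value, 39 of the 75 lay above the median of the list. The highest-ranked 10% of the list (5230 peaks) held 19 of the 75, or 25.3% (95% Wilson interval 16.9 to 36.2%, counting error only). These 19 came from 8 windows, with 4 each at Esrrb and Tbx3, 3 at Nanog, 2 each at Pou5f1, Sox2 and Klf2 and 1 each at Zfp42 and Prdm14. Each window thus mixed 1 to 4 strong sites with weaker ones, except that of Klf4, whose strongest peak ranked just below that 10%.

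The number of sequenced tags at each summit was read back from the deposited fold and -log10 p-value. In the windows it ran from 12 to 216 tags in the ESC Zfp281 list, where the lowest control level was 3.01 tags. For the strongest peak of each gene by -log10 q-value, with its exact Poisson 95% interval, Pou5f1 had 216 tags (188 to 247). Zfp42 had 160 (136 to 187) and Nanog 156 (132 to 182). Esrrb followed with 119 (98.6 to 142), Tbx3 with 115 (94.9 to 138), Sox2 with 114 (94.0 to 137), Klf2 with 102 (83.2 to 124) and Prdm14 with 98 (79.6 to 119). Klf4 was lowest with 62 (47.5 to 79.5). The interval of Pou5f1 lay above all others and that of Klf4 below all others, but both gaps were narrow. The upper end of Zfp42 (187) lay close to the lower end of Pou5f1 (188), and that of Klf4 (79.5) to the lower end of Prdm14 (79.6). Neighbours in the order from Zfp42 to Prdm14 had overlapping intervals. The control level was not even across these sites. It was raised above the lowest level at 13 of the 13 peaks in the 3 windows on chromosomes 1 and 8 (Prdm14, Klf2 and Zfp42), and at 43 of the 62 on other chromosomes (69.4%). Over the whole list it was raised at 93.3% of the peaks on chromosome 1, 94.3% on chromosome 8 and 49.5% elsewhere. At Pou5f1, on chromosome 17, the control level was raised at 6 of 6 peaks, with a median of 1.65 times the lowest level. That median was the highest of the 9 windows. The part of these control levels in the tag numbers was not tested for any gene, and fold values are relative to them.

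**Figure D2:**
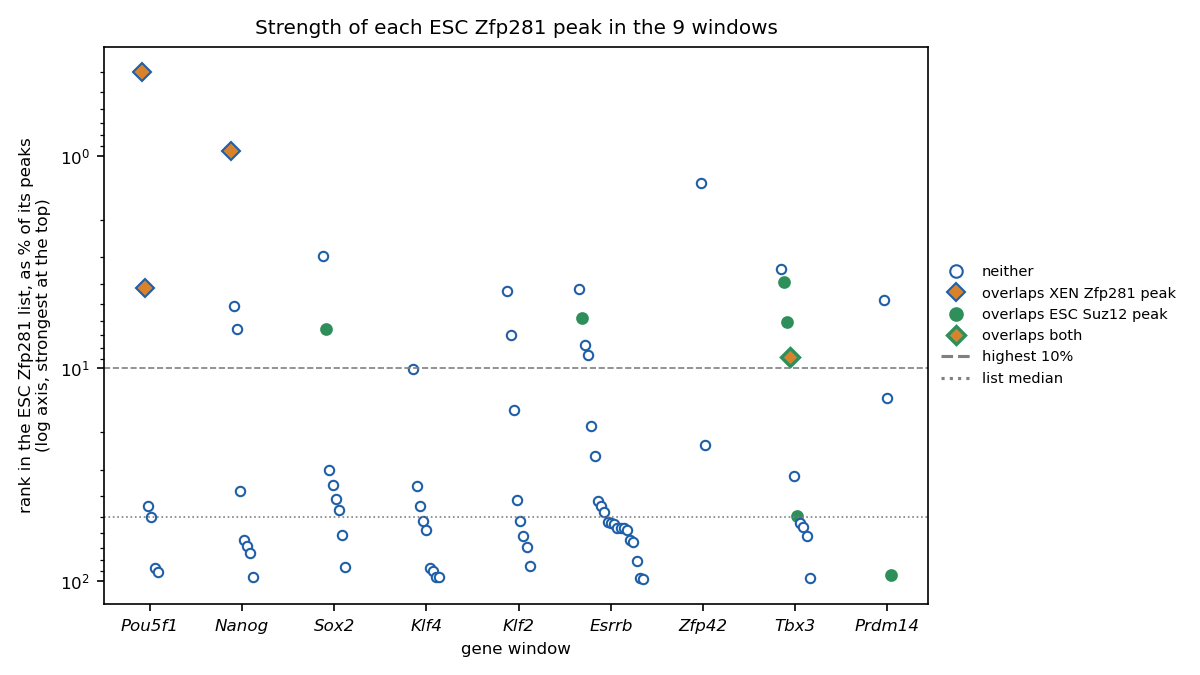
Rank of each of the 75 ESC Zfp281 peaks as a percentage of the 52296 peaks of the list, on a log axis with the strongest at the top, by gene window. Diamonds overlap an XEN Zfp281 peak and green marks an overlap with an ESC Suz12 peak. The 4 diamonds, at Pou5f1, Nanog and Tbx3, all lie in the highest 10%, above the dashed line.

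Among the central factors, Pou5f1, which encodes Oct4, carried the strongest site of all by -log10 q-value and by tags, though not by fold. Its ESC Zfp281 peak at chr17:35640277-35643488 was 3212 bp wide with a 31.1-fold enrichment and ranked 211 in the list, within its top 0.403%. The control level there was 1.98 times the lowest of the list. A second strong peak lay 245 bp before this one, at chr17:35638687-35640031, with 107 tags, an 18.1-fold enrichment and rank 2191. These adjoining sites stood apart from the 4 other peaks of the window, which had 16 to 28 tags and 3.18- to 5.74-fold enrichment. Just outside the window, 586 bp before its start, lay another strong ESC peak (22.3-fold, rank 2167), which the window leaves out.

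Nanog, the gene of a homeodomain factor, had 8 ESC Zfp281 peaks, of which 3 were strong. The strongest, at chr6:122651806-122653505, had the highest fold of all members, 34.1-fold, with 156 tags and rank 498. A peak 4.89 kb after it (summit to summit) at chr6:122656960-122657994 had 92 tags and an 18.9-fold enrichment. The third, 9.28 kb before it at chr6:122643024-122643658, had 77 tags and a 19.4-fold enrichment. The other 5 had 12 to 28 tags. All 8 lay within 21.9 kb, from one summit to another, and none lay in the later part of the window towards Slc2a3, the next protein-coding gene.

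Sox2, which encodes an HMG-box partner of Oct4, lies within the long noncoding transcript Sox2ot, so a peak there cannot be assigned to one of them. Its window also held 8 ESC Zfp281 peaks, and they covered 17.9% of it. The strongest, at chr3:34546811-34549561, was 2751 bp wide with 114 tags, a 23.1-fold enrichment and rank 1543. A second strong peak at chr3:34538071-34539113, 9.37 kb before it, had 77 tags (19.4-fold). The remaining 6 ran from 18 to 32 tags, and 4 of them formed a row 11.0 to 19.6 kb after the strongest summit. That row was weaker than both strong peaks, with intervals that did not reach theirs.

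The Krüppel-like factor genes Klf4 and Klf2 encode zinc finger proteins with overlapping roles in self-renewal, and their windows differed in arrangement. Klf2 had 8 ESC Zfp281 peaks, and the 2 in the highest 10% of the list adjoined each other. The peak at chr8:74841375-74842191 had 102 tags (18.99-fold, rank 2256). It was followed after 217 bp by one at chr8:74842409-74843754 with 84 tags (15.8-fold). After another 1072 bp lay one with 54 tags (10.8-fold), which ranked below that 10%. Klf4 had 9 peaks spread over 57.1 kb. Its strongest, at chr4:55544888-55546920, had 62 tags, a 15.7-fold enrichment at the lowest control level, and rank 5283. The other 8 Klf4 peaks did not exceed 6.62-fold. Of these, 5 lay at lower chromosome positions, 35.7 to 57.1 kb from the strongest summit, with 12 to 26 tags. Klf4 is on the minus strand, so it is transcribed towards lower positions.

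Esrrb, which encodes an orphan nuclear receptor, is by far the longest of these genes, and its window of 200 kb held 21 ESC Zfp281 peaks spread over 165 kb. The density of 5.25 per 50 kb was in the lower part of the range. By -log10 q-value the strongest peak was at chr12:87839531-87840379, with 119 tags and a 15.0-fold enrichment over a control level 2.31 times the lowest. The highest fold, 17.9-fold with 88 tags, was at chr12:87761859-87763460, 77.4 kb before it. The other strong peaks lay at chr12:87806977-87807791 (67 tags, 16.9-fold) and chr12:87828677-87830069 (77 tags, 15.9-fold). Their intervals overlapped one another and that of the 17.9-fold peak. The remaining 17 peaks had 14 to 47 tags and 2.56- to 10.3-fold enrichment.

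Tbx3, the gene of a T-box factor that also acts in endoderm and limb development, had 10 ESC Zfp281 peaks covering 26.8% of its window, the highest share among the 9 genes. It overlaps the antisense gene Tbx3os1. The strong peaks were spread along the locus, at chr5:120106653-120108116 (94 tags, 23.7-fold), chr5:120112123-120113710 (93 tags, 15.7-fold), chr5:120117873-120122900 (76 tags, 14.0-fold) and chr5:120130616-120133594 (115 tags, 19.4-fold, rank 1776). The third of these, 5028 bp wide, was the widest of the 75. The other 6 had 13 to 38 tags.

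Zfp42 and Prdm14 had the fewest sites. Zfp42 encodes the zinc finger protein Rex1. Its single strong ESC Zfp281 peak at chr8:44405980-44406973 had 160 tags, a 25.1-fold enrichment and rank 701. The other, at chr8:44414961-44415492 (43 tags), crossed the end of the window and had its summit outside it. A further strong ESC peak (15.8-fold, rank 4633) lay 11.6 kb before the Zfp42 window, which leaves it out. With 20 kb more on each side that window held 7 peaks, so its low count depends on its limits. Prdm14, which encodes a PR-domain protein, had a peak at chr1:13093368-13094572 with 98 tags (18.2-fold, rank 2500), 28.4 kb from one with 60 tags (11.2-fold). Between them lay a weak peak of 17 tags (3.01-fold) at chr1:13114384-13114746. A low number of sites did not go with a weak strongest site at Zfp42.

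**Figure D3:**
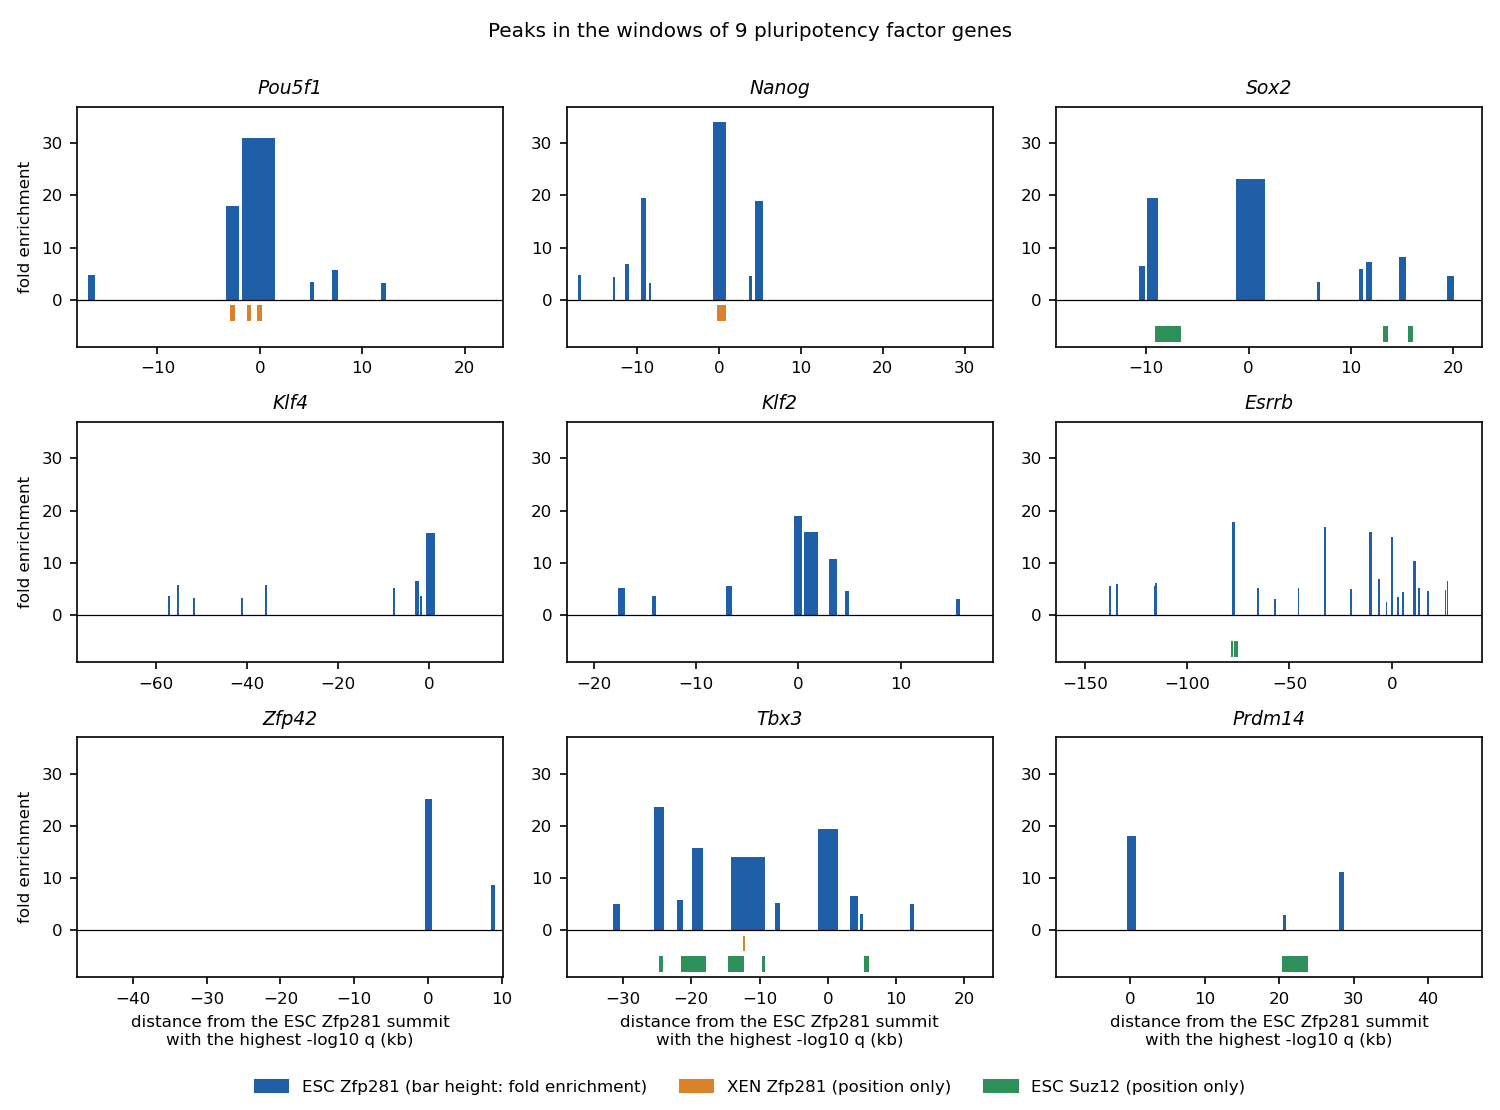
Peaks in the window of each gene, against the distance in kb from the summit of the ESC Zfp281 peak with the highest -log10 q-value. Blue bars have the width of the ESC Zfp281 peak (or a minimum width to be seen) and the height of its fold enrichment, and orange and green blocks give only the positions of XEN Zfp281 and ESC Suz12 peaks. The 2 highest bars of Klf2 adjoin each other, whereas the 21 bars of Esrrb are spread over 165 kb.

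In XENs, Zfp281 peaks were listed at 3 of the 9 genes, with 3 at Pou5f1, 1 at Nanog and 1 at Tbx3. The windows of Sox2, Klf4, Klf2, Esrrb, Zfp42 and Prdm14 had none. The share of bins of 50 kb with an XEN Zfp281 peak was 5.35%. The windows held 7.94 XEN peaks per Mb against 1.34 over chromosomes 1 to 19 and X, a ratio of 5.91 (1.92 to 13.8), which is as high as the ratio for ESC Zfp281 peaks but rests on 5 peaks. The nearest XEN peak lay 93.8 kb outside the Zfp42 window, 148 kb outside that of Klf2, 262 kb outside that of Esrrb and 451 kb outside that of Klf4. It lay 511 kb outside that of Prdm14 and 1808 kb outside that of Sox2. The expected number of tags at the lowest control level was 2.89 in the XEN list and 3.01 in the ESC list. At that level the smallest listed peak had 16 tags (4.18-fold) in XENs and 10 tags (2.74-fold) in ESCs, so the XEN list reached less far down, and its part in the number of XEN peaks was not tested.

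The XEN peaks at Pou5f1 lay within the 2 adjoining strong ESC sites. The first, at chr17:35639095-35639592, had 35 tags (95% interval 24.4 to 48.7) and a 7.38-fold enrichment, ranked 1292 of 3449, and its summit was 13 bp from that of the ESC peak. The other pair, at chr17:35640814-35641199 (34 tags, 8.04-fold, rank 1217) and chr17:35641746-35642200 (20 tags, 5.15-fold, rank 2917), both fell in the 3212 bp ESC peak, with summits 1044 and 138 bp from the ESC summit. The pair overlapped 386 and 455 bp of that ESC peak, and XEN peaks were narrower over the whole list too, with a median width of 390 bp against 594 bp. At Nanog, the XEN peak at chr6:122652399-122653396 had 33 tags (22.7 to 46.3, 5.46-fold, rank 2060) and a summit 12 bp from that of the strongest ESC peak. At Tbx3, the XEN peak at chr5:120119628-120119945 had 28 tags (18.6 to 40.5, 7.09-fold, rank 1718) and lay in the widest ESC peak, 878 bp from its summit. By -log10 q-value, 2 of the 5, both at Pou5f1, exceeded the median of the XEN list and the Tbx3 peak was tied with it. By fold, these 3 exceeded the median of 6.35.

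**Figure D4:**
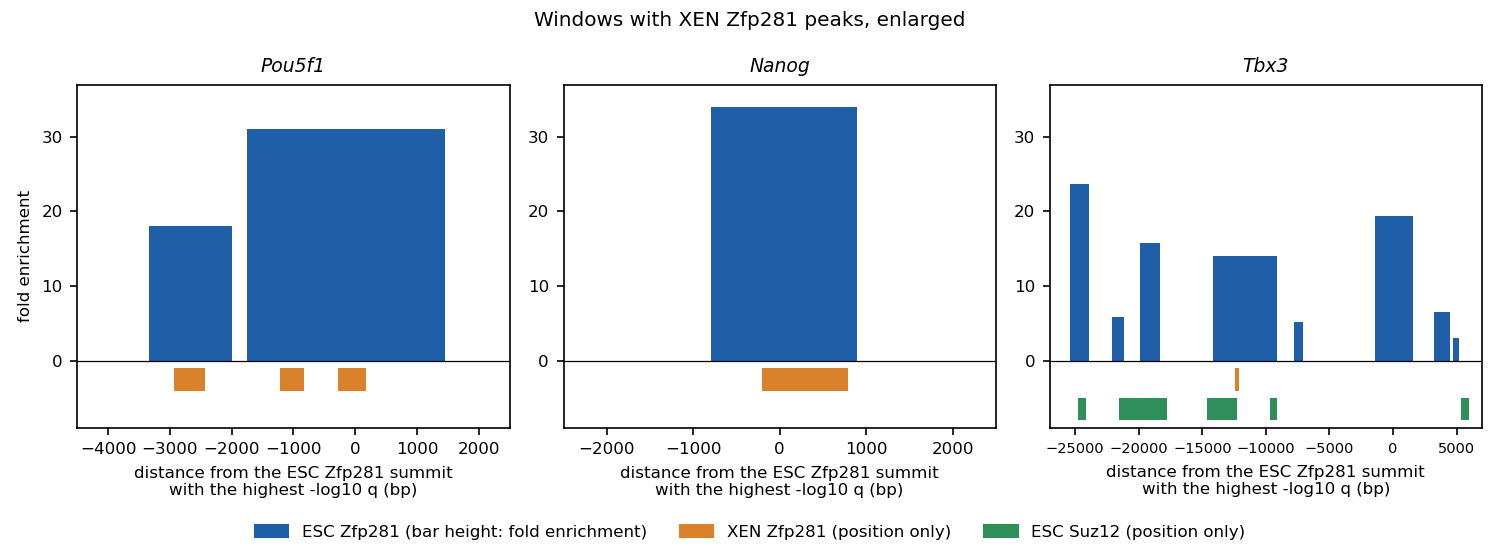
The parts of the Pou5f1, Nanog and Tbx3 windows with XEN Zfp281 peaks, against the distance in bp from the summit of the ESC Zfp281 peak with the highest -log10 q-value. Blue bars have the width and the fold enrichment of ESC Zfp281 peaks, and orange and green blocks the positions of XEN Zfp281 and ESC Suz12 peaks. At Pou5f1, 3 orange blocks lie under 2 blue bars.

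Each of the 5 XEN peaks overlapped an ESC Zfp281 peak (interval 56.6 to 100%). Over the whole XEN list 80.8% did, which lies within that interval. In the other direction, 4 of the 75 ESC peaks overlapped an XEN peak, or 5.33% (2.09 to 12.9%), and over the whole ESC list 5.10% did. All 4 were in the highest 10% of the ESC list, where 4 of the 19 members had an XEN peak, or 21.1% (8.51 to 43.3%), against 24.9% of all peaks in that 10%. Of the 56 members outside it, 0 did (upper bound 6.42%), against 2.89% of all such peaks. These shares lay close to those of the whole list, with intervals too wide to show a modest difference either way. Without the Pou5f1 window the share was 2.90% (2 of 69). Within the highest 10% of the ESC list, ranks of sites with and without an XEN peak were mixed. The strongest at Zfp42 (rank 701), Sox2 (rank 1543) and Tbx3 (rank 1776) had none, while the Tbx3 site of rank 4609 had one. The 4 sites with an XEN peak were 1345, 3212, 1700 and 5028 bp wide, against a median of 590 bp in the windows. The named sites without one were 994 bp wide at Zfp42, 2751 bp at Sox2 and 2979 bp at Tbx3. The part of width in these overlaps was not tested.

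Suz12 peaks in ESCs were listed at 4 genes, with 5 at Tbx3, 3 at Sox2, 2 at Esrrb and 1 at Prdm14, against 9.28% of bins of 50 kb with at least 1. Pou5f1, Nanog, Klf4, Klf2 and Zfp42 had none, and the nearest lay 16.5 kb outside the Pou5f1 window and 1605 kb outside that of Zfp42. The density of Suz12 peaks was 17.5 per Mb against 3.19 over the chromosomes, a ratio of 5.48 (2.74 to 9.80). Only the Prdm14 peak was in the highest 10% of the Suz12 list. It lay at chr1:13114258-13117716, was 3459 bp wide and had 133 tags (111 to 158), a 20.8-fold enrichment and rank 429.

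At Esrrb the Suz12 peaks were at chr12:87762739-87765034 (115 tags, 11.5-fold, rank 905) and chr12:87761570-87762568 (46 tags, 6.78-fold). At Tbx3 the highest by -log10 q-value was at chr5:120110502-120114258, 3757 bp wide with 54 tags (7.92-fold, rank 2597), and the other 4 had 30 to 49 tags. At Sox2 they were at chr3:34538858-34541350 (35 tags, 5.45-fold, rank 4599), chr3:34561169-34561601 (24 tags, 3.97-fold) and chr3:34563543-34564038 (29 tags, 3.02-fold). All 3 Sox2 peaks were below the median of their list, so Suz12 at Sox2 was weak by this measure.

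Suz12 peaks overlapped 7 of the 75 ESC Zfp281 peaks in the windows by at least 1 bp, or 9.33% (4.59 to 18.0%), against 7.77% of the whole list. The 7 were 4 at Tbx3 and 1 each at Sox2, Esrrb and Prdm14, and without the Tbx3 window the share was 4.62% (3 of 65). Some met only at their edges, and summits of overlapping peaks were 141 to 3686 bp apart. Requiring 50% of the shorter peak gave 6.67% of the 75, as did centres within 1 kb. In the other direction 8 of the 11 Suz12 peaks overlapped a Zfp281 peak, or 72.7% (43.4 to 90.3%). Over the whole Suz12 list it was 45.8%, which lies within that interval. The interval covers counting error alone and treats adjoining peaks as independent. Zfp281 peaks were also denser in these windows than over the chromosomes (ratio 5.85), and the part of this in the share was not tested. At Prdm14 the edge of the strongest Suz12 site overlapped the weakest Zfp281 peak of the window, with summits 1346 bp apart. By rank, that Suz12 peak was within the top 5.24% of its list and that Zfp281 peak within the top 94.6% of its own. At Esrrb both Suz12 peaks overlapped the Zfp281 peak with the highest fold of that gene, within the top 5.81% of its list, and the Suz12 peaks were within the top 38.5% and 11.1% of theirs, with summits 141 and 555 bp apart. At Tbx3 the Zfp281 peak of rank 1776 had no Suz12 peak, whereas the other 3 strong ones did. The wide one of rank 4609, which met 2 Suz12 peaks, was also the only one of the 75 with peaks of both other lists, and its XEN peak itself overlapped a Suz12 peak of ESCs.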

How the data were processed

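Chromatin immunoprecipitation was sequenced in 7 samples, whose titles give the cell type and the antibody. Per the submitters' processing notes, reads were handled with FastQC 0.10.1, Bowtie2 2.3.4 and SAMtools 0.1.19 on build mm9. The peak caller, its control, its threshold and the treatment of duplicate reads are not given in the sources used here. The authors deposited 1 list of peaks per immunoprecipitated library, with 10 columns and no header. The deposited score is 10 times the -log10 q-value without decimals. The deposited fold ratio and -log10 p-value are the peak caller's own, and served to describe and rank peaks within a list. Window positions count from 1. For peaks and windows, before and after mean lower and higher chromosome positions, whatever the strand of the gene.

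Tags per peak and the control level were recovered by taking the fold as (pileup + 1) over (control + 1) and the p-value as a Poisson upper tail. The computation was first run on simulated data made with the same formulas. That run cannot show whether the peak caller used these formulas. All 52296, 3449 and 8184 peaks of the 3 long lists matched a whole number of tags within 0.002 of the deposited -log10 p-value, at scale factors of 1.00, 0.815 and 0.590. A control level was called raised from 1.01 times the lowest of its list. The highest 10% of a list is by -log10 q-value. Shares have 95% Wilson intervals.

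The members and lists were chosen with earlier results of these data known. All 9 genes are named, with the strongest ESC Zfp281 peak of each, and with every XEN Zfp281 and ESC Suz12 peak where a window had 3 or fewer, otherwise the highest. Further peaks were named after their values were seen. A planned count at other pluripotency genes was not run, for want of an mm9 gene annotation, since positions were not moved between builds. Python 3.11.15, numpy 2.4.6, pandas 2.3.3 and scipy 1.17.1 were used.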

Additional observations from a re-analysis of the deposited data

How the results depend on the processing

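No paired analysis was possible because no group held more than 1 sample. Requiring a -log10 q-value above the list median left 39 ESC Zfp281, 2 XEN Zfp281 and 5 ESC Suz12 peaks in the windows, which by construction removes weaker peaks. Windows widened by 20 kb held 8 XEN Zfp281 peaks. With as many ESC Zfp281 peaks as the other list holds, the share at an XEN Zfp281 peak was 20% (of 15 peaks, interval 7.05 to 45.2%) against 30.3% of all ESC peaks kept. At an ESC Suz12 peak it was 23.8% (of 21, 10.6 to 45.1%) against 13.6%. The density ratio was 2.52 against bins that held a peak. The other 16 of 23 alternatives for these results moved them by less than 1.5 times or stayed within their interval. For single windows, 87 of 108 did, and the others came mostly from the stricter threshold and the wider windows (7 peaks at Zfp42 and 18 at Tbx3). The XEN list held no site below 16 tags at its lowest control level.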

Other observations

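The 3 XEN Zfp281 peaks that lay outside the windows by less than 20 kb were 1 at Pou5f1 and 2 at Nanog. The XEN peak at chr17:35623724-35624123 (6.23-fold, rank 1871) lay 877 bp before the Pou5f1 window, within the strong ESC site already described there. At Nanog, 1 lay 15.0 kb before the window (7.79-fold, rank 1094), on the side of Dppa3, the preceding protein-coding gene and itself a marker of naive ESCs and germ cells. The other lay at chr6:122692356-122692948, 7355 bp after the window on the side of Slc2a3, a glucose transporter gene. With a 13.1-fold enrichment and rank 204 it stood higher in the XEN list than all 5 peaks inside the windows. Each of the 3 overlapped an ESC Zfp281 peak.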
